A study of Mus musculus with 21 samples.

Results

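Single-nucleotide variants (SNVs) in 4 genes of DNA repair and replication, Atm, Wrn, Parp1 and Pold1, were followed through the variant lists of mouse embryonic stem cells (ESCs) and of tumours of mice that had been made from ESCs with tetraploid host embryos. Every call that the deposited annotation assigned to one of these genes, and not to intergenic sequence, was taken. The genes were chosen by the calls of these same lists, that is by which of them held sites, in which libraries and with what consequence, so counts of sites are given as a description. The 4 genes held 32 distinct sites of 16971 non-intergenic sites in all, of which 6 of 2510 were ESC sites and 27 of 14644 tumour sites, 1 site being in both sets. Behind them stood 15 ESC calls and 163 tumour calls.

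The series asked how stable the genome is in ESCs under 5 culture conditions, with 2 libraries of genomic DNA per condition numbered 3 and 5 in the labels. The ESC lists come from exome capture, while for the tumours the series names both exome sequencing and ATAC-seq, so their assay is not settled. All samples carried the strain name C57BL6X129S6F1. All 5 media held leukaemia inhibitory factor (LIF, 1000 IU). SL was a KO-DMEM medium with 15% serum in place of inhibitors. The remaining 4 were N2B27 media with the GSK3 inhibitor CHIR99021 at 3 µM, to which 2iL added the MEK inhibitor PD0325901 at 1 µM, A2iL the Src inhibitor CGP77675 at 1.5 µM, and LCDM the compounds written Dim and Mih at 2 µM each. Feeder cells were present in SL, 2iL, A2iL and LCDM, and 2iL-F was the 2iL medium with no feeders. Each of the 8 tumour libraries is named for an ESC condition and for P9 or P14: 1 was 2iL-P9, 3 were A2iL-P9, 1 was A2iL-P14, 2 were LCDM-P9 and 1 was 2iL-F-P9. What 3, 5, P9 and P14 mean, and the age of the mice, are not given in the sources used here. ESC lists were called against 1 library of mouse embryonic fibroblasts (MEFs) and tumour lists against 1 library of blood cells labelled WT, whose columns carry the number 2. The header names of the tumours recorded as 2iL-P9 and 2iL-F-P9 differ from their labels, so these 2 could be exchanged.

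Atm is the kinase that signals DNA double-strand breaks to the cell cycle checkpoint, and its loss causes ataxia-telangiectasia. Wrn is a helicase with an exonuclease domain of the RecQ family, which helps restart stalled replication forks and maintains telomeres, and its human counterpart is mutated in Werner syndrome. Parp1 senses strand breaks and marks proteins there with poly(ADP-ribose). Pold1 is the catalytic subunit of DNA polymerase delta, which copies the lagging strand and corrects its own errors with a proofreading exonuclease. ESCs divide fast and with a short G1 phase, so replication errors and their repair bear on how many mutations a line gathers.

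A call of an ESC library rested on a median of 54 to 72 reads and a call of a tumour library on 28 to 39. Base qualities, on the Phred scale, had a median of 36 or 37 in every library. No ESC list holds calls less than 10 kb apart. The tumour LCDM-P9 replicate 2 stood apart from the other 7, with 3634 calls against 9752 to 10325 and a median alternative-allele fraction of 0.8 against 0.429 to 0.436. It held no call in any of the 4 genes. None of the 32 sites lay in a segmental duplication.

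Pold1 carried the same exonic site in all 10 ESC libraries. It is a synonymous change, C861T in the coding sequence, D287D in the protein, in exon 8 (mm10 chromosome 7, position 44541378). On the genome strand it reads G44541378A, written as reference base, position and alternative base. It had no dbSNP identifier. The fraction of reads with the alternative base was 0.494 and 0.5 in SL 3 and SL 5, and 0.558 and 0.547 in 2iL 3 and 2iL 5. For A2iL it was 0.392 and 0.368, for LCDM 0.524 and 0.361, and without feeders 0.452 and 0.581, always in the order 3 and 5. Both A2iL libraries and LCDM 5 were thus low and both 2iL libraries and 2iL-F 5 high, with LCDM 3 and LCDM 5 lying nearly as far apart as the lowest and the highest condition mean. The depth was 72 to 102 reads and the mean base quality 36 or 37. The 95% Wilson interval of a library held 0.5 in 7 of 10, the exceptions being A2iL 3 (0.303 to 0.489), A2iL 5 (0.274 to 0.473) and LCDM 5 (0.260 to 0.476). These intervals cover counting error only, since reads amplified by PCR are not independent molecules.

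From the lowest to the highest, the condition means at the Pold1 site were 0.380 ± 0.0170 (SD, n = 2) for A2iL, 0.442 ± 0.115 for LCDM, 0.497 ± 0.00424 for SL, 0.516 ± 0.0912 for 2iL-F and 0.552 ± 0.00778 for 2iL. The spread among conditions was not larger than that between libraries at the threshold used, an adjusted p of 0.05 (exact permutation F test over 945 partitions, one-sided by construction, p = 0.244, adjusted over 1068 ESC sites 0.774). Of those 1068 sites, 7.58% had an unadjusted exact permutation p of at most 0.05 and none passed after adjustment. When a single condition deviates from the others, which lie together, its libraries stay paired in a share of about 0.111 of the partitions. The p of this test can then lie anywhere up to about 0.111, so the test is weak for a deviation of A2iL alone. Nothing in the labels says that the libraries came from separate cultures, so p-values measure the spread between these libraries only.

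**Figure D1:**
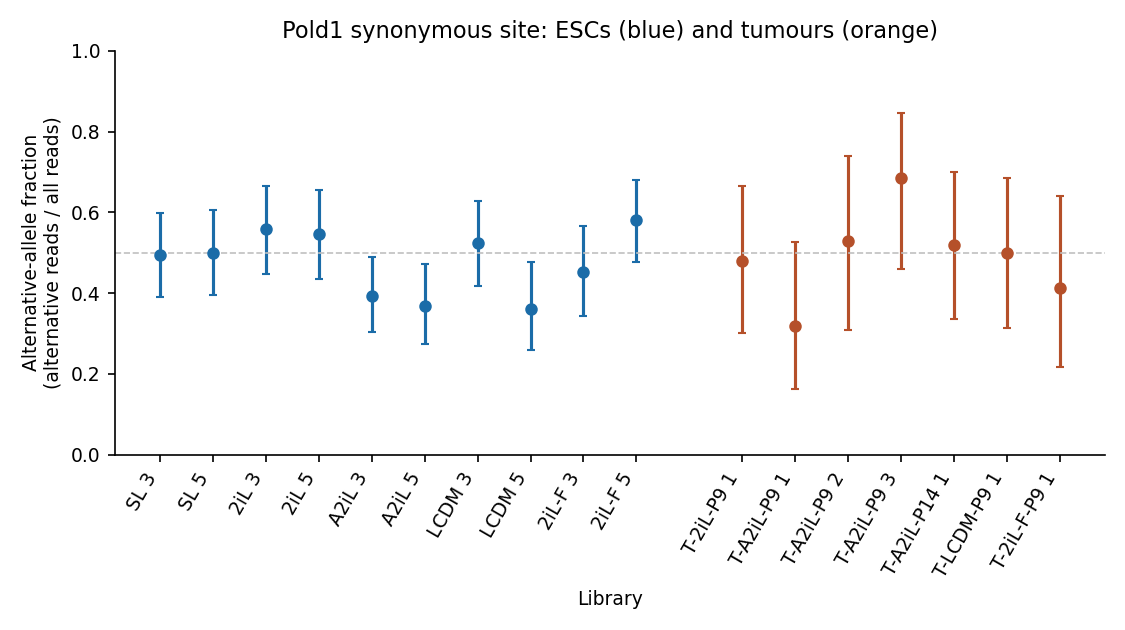
Alternative-allele fraction at the Pold1 synonymous site (y axis, share of reads) in the 10 ESC libraries (blue) and the 7 tumour libraries that called it (orange), with 95% Wilson intervals from read counts; the dashed line is at 0.5. ESC fractions ran from 0.361 to 0.581, and tumour fractions, on fewer reads, from 0.318 to 0.684.

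The Pold1 site was absent from the reads of both controls. In the MEF control 0 of 93 reads carried it, which allows a share of up to about 3.23%. Such limits are approximate and were taken as 3 reads divided by the depth. In the blood control it was 0 of 19 reads, which allows up to 15.8%. A synonymous ESC site called in all 10 libraries was common: 33.5% of the 331 synonymous ESC sites were. No other ESC call lay within 10 kb of it, the nearest being 90149 bp away, so its calls were not affected by the spacing of the lists.

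The same Pold1 change was called in 7 of the 8 tumours, again without a dbSNP identifier. The fraction was 0.48 in 2iL-P9 (12 of 25 reads), 0.412 in 2iL-F-P9 (7 of 17), 0.5 in LCDM-P9 replicate 1 (12 of 24) and 0.52 in A2iL-P14 (13 of 25). In the 3 A2iL-P9 tumours it was 0.318, 0.529 and 0.684, a mean of 0.510 ± 0.184 (SD, n = 3). The A2iL-P9 tumours held both the lowest and the highest value, and every tumour's Wilson interval held 0.5. Summed over libraries, 73 of 149 tumour reads (0.490) and 391 of 821 ESC reads (0.476) had the alternative base.

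Seen from the ESC lists, presence of a site in both sets was uncommon, at 183 of 2510 non-intergenic sites (7.29%). The ESC lists hold no site with a dbSNP identifier, so only tumour sites without one could be shared. Of the 439 non-intergenic sites called in all 10 ESC libraries, 39 (8.88%) were called in exactly the 7 tumours that called Pold1 D287D. From the tumour side, 4.65% of the 14644 non-intergenic sites had no dbSNP identifier. Of those 681, 83 (12.2%) were called in exactly these 7 tumours. The 39 sites stand beside these 83, so the pattern of Pold1 D287D was not rare among such tumour sites. The nearest other tumour site was 93161 bp from it, and no tumour site within 1 Mb of Pold1 had a dbSNP identifier. The nearest call of LCDM-P9 replicate 2 to the gene was 0.884 Mb away. Its reads at the Pold1 site are not given in the lists, so a missing call cannot be told apart from missing coverage there.

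The other 5 ESC sites were intronic, and each was called in 1 library. They made up 83.3% of the 6 ESC sites of the 4 genes. This share was in view when the genes were chosen, so nothing is read from it against the 34.3% of all non-intergenic ESC sites, or the 40.8% of intronic ones, that were called in 1 library. None of the 5 was called in a tumour, as against 7.29% of all non-intergenic ESC sites and 3.60% of those found in 1 library. Their depths ran from 5 to 37 reads, and 3 of the 5 had fewer than 20, as did 39.1% of private non-intergenic ESC calls.

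Atm had its 2 ESC sites in different conditions. G53458613A (chromosome 9) was read in 2 of 5 reads of 2iL-F 3, a fraction of 0.4 with a Wilson interval of 0.118 to 0.769, at a base quality of 37, with 0 of 14 control reads. T53462798A, inside a SINE repeat, was read in 2 of 6 reads of SL 5, a fraction of 0.333 (0.0968 to 0.700), at the same quality, with 0 of 9 control reads. A count of 0 in controls of this depth allows shares of up to 21.4% and 33.3% by the same approximate rule. A variant present in the MEFs at a low share was thus not detectable. The 2 sites were 4185 bp apart. Since no ESC list holds calls this close together, the absence of each site from the other library's list says nothing about its reads there.

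Wrn also had 2 ESC sites, 73408 bp apart, both on chromosome 8. A33255639T, inside an LTR repeat, was read in 4 of 37 reads of 2iL-F 5, a fraction of 0.108 (0.0429 to 0.247). The control had 0 alternative bases at a depth of 40. G33329047A was read in 3 of 15 reads of LCDM 3, a fraction of 0.2 (0.0705 to 0.452), with 0 of 27 control reads. Both had a base quality of 37. Their upper bounds lay below 0.5, unlike those of the Atm sites, and neither had a call of another ESC library within 10 kb.

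Parp1 had 1 ESC site, T180597200G on chromosome 1, read in 7 of 26 reads of 2iL 3, a fraction of 0.269 (0.137 to 0.461). It was the best supported of the 5 by number of alternative reads. Its base quality was 16, the lowest of all ESC calls in the 4 genes, and the MEF control held 1 alternative read among 29. Base qualities under 30 were found in 2.66% of all non-intergenic ESC calls, in 14.1% of the private ones and in 62.2% of the 156 private calls of this substitution class (T to G, either strand), whose median was 21. An alternative read in the control was found in 6.07% of non-intergenic ESC calls. The part of base quality in this call was not tested. No other ESC call lay within 10 kb of the Parp1 site.

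**Figure D2:**
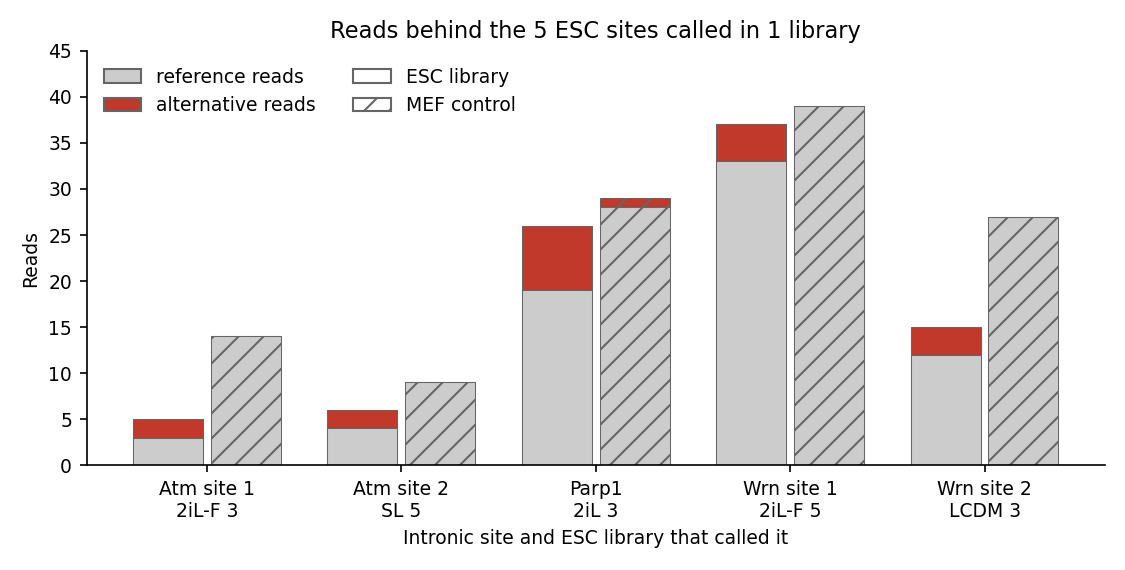
Reads (y axis, counts) behind the 5 intronic ESC sites called in 1 library, with reference reads in grey and alternative reads in red, for the library named under the bar (plain) and the MEF control (hatched). The Atm sites rest on 5 and 6 reads, and the Parp1 site is the one with an alternative read in the control.

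In the tumours, Atm and Wrn had 13 sites each, all with a dbSNP identifier, while Parp1 had none. Of these 26 sites 21 were intronic and 5 exonic, and 2, both in Wrn, lay in a SINE repeat. A single site changed a protein. This was I2294L in exon 48 of Atm (A6880C, chromosome 9, position 53458931), an exchange of one branched hydrophobic residue for another. Over all exonic dbSNP sites of the tumours, 29.4% were missense.

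Atm I2294L had a fraction of 0.449 in 2iL-P9, 0.35 in 2iL-F-P9, 0.5 in LCDM-P9 replicate 1, 0.431 in A2iL-P14 and 0.432, 0.426 and 0.325 in the A2iL-P9 tumours. A2iL-P9 replicate 3 and 2iL-F-P9 were lowest and LCDM-P9 replicate 1 highest. The depth was 37 to 69 reads and the base quality 36 or 37. Over the 7 tumours 158 of 372 reads (0.425) had the alternative base, against 1 of 64 in the blood control. The A2iL-P9 mean was 0.394 ± 0.0601 (SD, n = 3), and the 3 other P9 tumours with a call averaged 0.433 ± 0.0763.

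The other exonic Atm sites were synonymous. L2167L in exon 46 (T6499C, position 53460991) had fractions of 0.455 to 0.56 at depths of 77 to 112 in 7 tumours, with 1 of 111 control reads. G1989G in exon 40 (A5967T, position 53468022) was called in 6 tumours at 0.296 to 0.632, on 9 to 39 reads, with 0 of 38 control reads. It was not called in A2iL-P9 replicate 1. The 10 intronic Atm sites ran from 0.135 to 0.714.

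Both exonic Wrn sites were synonymous and lay 6 bp apart in exon 25, so that many reads cover both. K1039K (A3117G, position 33268737) had fractions of 0.241 to 0.453 and P1037P (A3111G, position 33268743) of 0.271 to 0.476, and within a tumour the 2 differed by at most 0.03. For both sites 2iL-F-P9 was lowest and A2iL-P9 replicate 1 highest. The blood control held 1 alternative read at each, at depths of 108 and 111. The 11 intronic Wrn sites ran from 0.107 to 0.765. The largest value, in 2iL-P9, stood at T33267980A, where depths were only 8 to 18 reads.

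**Figure D3:**
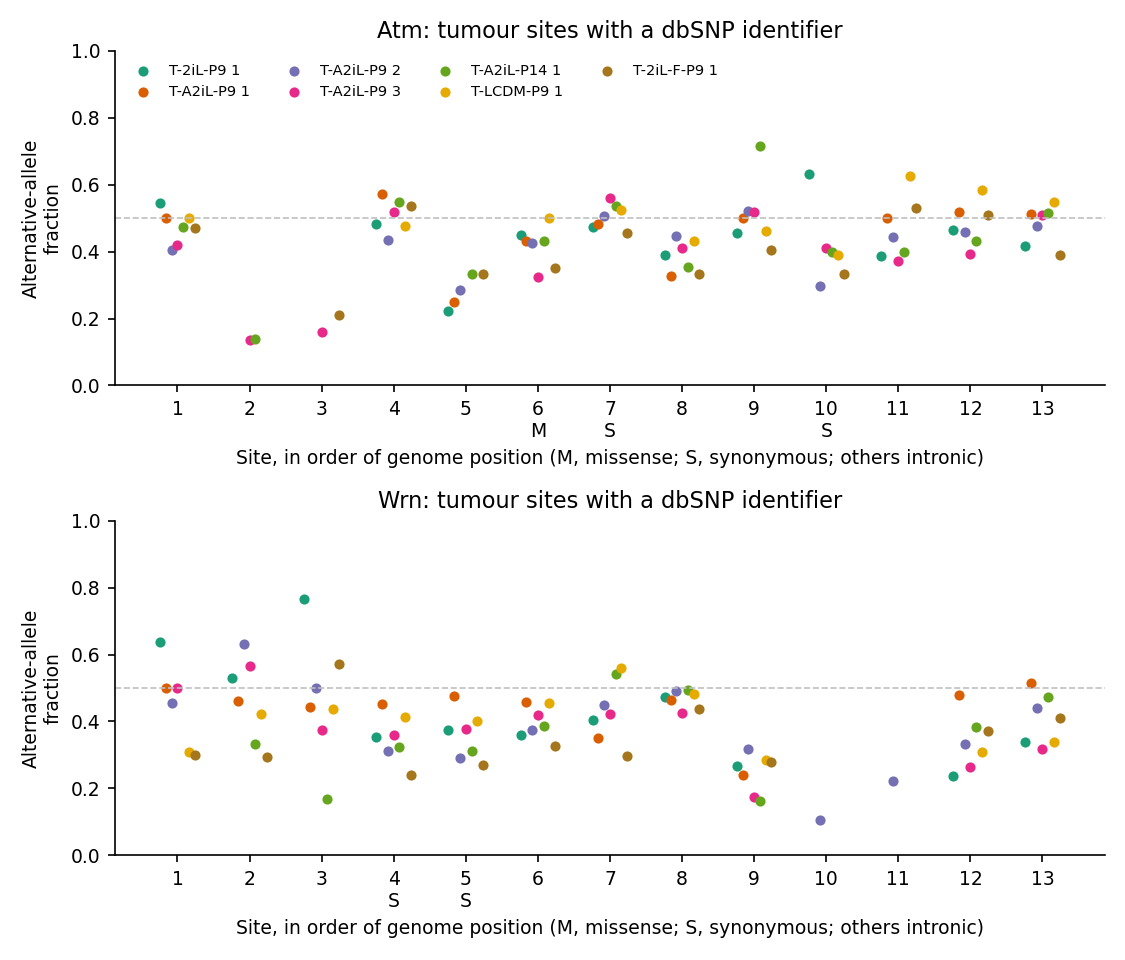
Alternative-allele fraction (y axis, share of reads) at the 13 Atm and 13 Wrn tumour sites, in order of genome position (x axis), with a point for each tumour that called the site; M marks the missense and S the synonymous sites, the others are intronic, and the dashed line is at 0.5. Sites called in few tumours, such as Atm sites 2 and 3 and Wrn sites 10 and 11, have fractions of 0.107 to 0.222.

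Of the 26 dbSNP sites 19 (73.1%), 9 in Atm and 10 in Wrn, were called in exactly the 7 tumours without LCDM-P9 replicate 2, as were 50.5% of all non-intergenic dbSNP sites of the tumours and 48.7% of all their non-intergenic sites. The other 7 were missing from further tumours. In Atm, G53456752A was called in A2iL-P14 and A2iL-P9 replicate 3 and C53456784A in 2iL-F-P9 and A2iL-P9 replicate 3, while A53458672G was missing from A2iL-P9 replicate 3 and LCDM-P9 replicate 1. In Wrn, T33284758C and T33284811G were called in A2iL-P9 replicate 2 alone. C33240895T was missing from A2iL-P14, at depths of 10 to 14 reads elsewhere. The 5 sites called in 1 to 5 tumours had fractions of 0.107 to 0.333, below most values at the sites called in 7. The base qualities of 26 at G53456752A and 24 at T33284811G were the lowest of the tumour calls in these genes.

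Neighbouring sites of a gene differed in fraction in a way that recurred across tumours. In Wrn, C33284600T was read at 0.426 to 0.493 and G33284731A, 131 bp away, at 0.162 to 0.318, lower in 7 of 7 tumours with no overlap. In Atm, the exonic L2167L at 0.455 to 0.56 and the intronic A53461099G, 108 bp away, at 0.327 to 0.447, did not overlap either, the intronic site being lower in 7 of 7. Among sites of these genes called in 7 tumours there were 8 pairs within 200 bp of each other, and these were the 2 without overlap. In the other 6 the ranges overlapped, although in 2 of them, both in Wrn, one site was again the higher in 7 of 7 tumours. Sites called in fewer tumours were left out of this comparison. The pairs were compared after their values were seen, their sites share libraries and reads, and no test was made.

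Within each tumour the Atm sites had the higher median fraction, while the ranges over sites of both genes overlapped. Over the 9 Atm sites called in 7 tumours, the median fraction of a tumour was 0.421 to 0.5, and over the 10 Wrn sites 0.311 to 0.460. The Atm median was above the Wrn median in 7 of 7 tumours. The largest gap was in 2iL-F-P9, at 0.455 and 0.311, and the smallest in A2iL-P9 replicates 1 and 2, at 0.5 and 0.460 and at 0.447 and 0.408. All dbSNP sites called in these 7 tumours, 7177 in number, had medians of 0.448 to 0.455 per tumour, so that Atm lay near the whole set and Wrn below it in 6 of 7 tumours, the exception being A2iL-P9 replicate 1. Sites of 1 gene share haplotypes and reads and are not replicates.

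**Figure D4:**
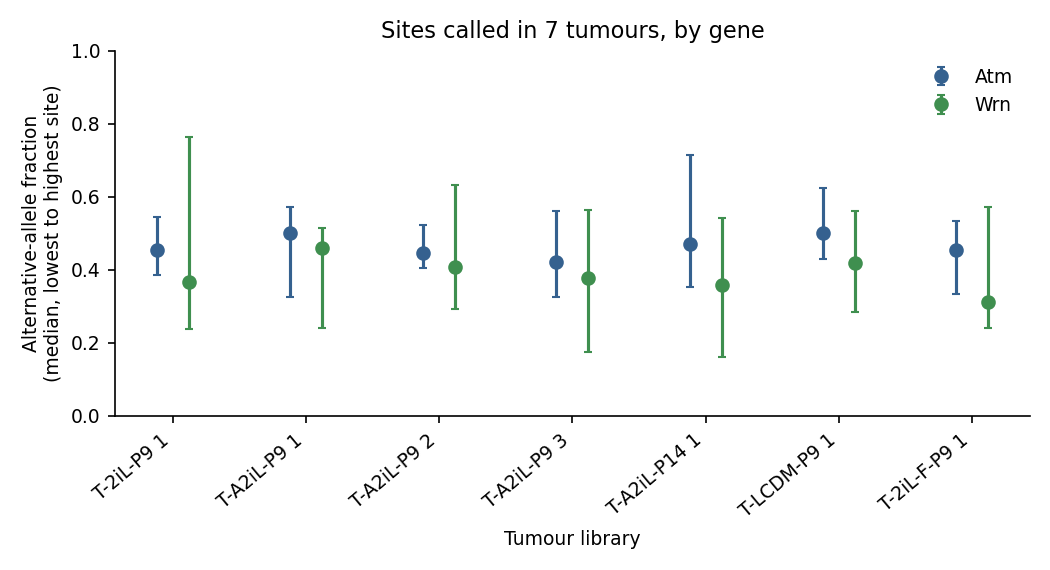
Median alternative-allele fraction (points) and the lowest to highest site (bars) for the 9 Atm and 10 Wrn sites called in 7 tumours (y axis, share of reads), by tumour library (x axis). The Atm median is above the Wrn median in each of the 7 tumours, and the ranges over sites overlap throughout.

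Whether A2iL-P9 tumours differ from the other P9 tumours in these fractions could not be asked of all 7 P9 tumours, since LCDM-P9 replicate 2 called none of the sites. Without it, 3 A2iL-P9 tumours stood against 3 others, for which the smallest two-sided exact permutation p is 0.1. Of the 21 sites called in all 6, A2iL-P9 was higher on average at 13 and lower at 8, the differences running from -0.152 to 0.138 with a median of 0.0317 (0.004 over the 7781 sites of the same kind). The direction was not counted over the 7781 sites, and sites of a gene share reads, so nothing is read from 13 against 8. The groups did not overlap at 1 site, the intronic Atm C53464124T, with 0.513 ± 0.0115 (SD, n = 3) in A2iL-P9 and 0.441 ± 0.0305 in the others (exact permutation p = 0.1, adjusted over all 7781 sites to 1). Non-overlap was found at 9.2% of the 7781 sites, at 4.92% with A2iL-P9 above and at 4.28% with A2iL-P9 below, so 1 of 21 is no more than the background share.

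The surroundings of the genes differed as well. Within 1 Mb of Atm the tumour lists held 15 sites, 13 of them in Atm itself, and within 1 Mb of Wrn 19, of which 13 were in Wrn. All of these had a dbSNP identifier. Around Parp1 there were 28 sites with an identifier, yet none in the gene, the nearest call of 7 tumours being 0.148 Mb away. In LCDM-P9 replicate 2 the nearest call was 10.8 Mb from Atm, 4.56 Mb from Wrn and 7.35 Mb from Parp1. That tumour had 6 calls on the whole of chromosome 9, where the other 7 had 903 to 975, and 142 on chromosome 8, where they had 555 to 575. The absence of Atm calls in that tumour is shared by nearly all of the chromosome. The ESC sites of Atm and Wrn were not tumour sites, although G53458613A lay 59 bp from a tumour site and 318 bp from Atm I2294L. The ESC lists hold no site with a dbSNP identifier, and so none of these 26.

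The blood control was not free of the alternative bases. At 20 of the 26 dbSNP sites (76.9%) it held 1 alternative read, against 31.2% of all non-intergenic dbSNP sites of the tumours. The other 6 had none, at control depths of 11 to 44. For Wrn G33240941A, among these 6, only 10 reference reads were counted at a control depth of 25. Close sites share control reads, so the sites are not separate observations. No non-intergenic site of either set had more than 1 alternative read in its control. A limit of 45 on control depth was chosen after seeing the values, just above the deepest site without an alternative read, at 44. It thereby fixed that 17 of 17 sites of the 2 genes at or above it held such a read. Nothing is read from this against the 54.5% of all dbSNP sites of that depth. Below the limit 3 of 9 held one, against 16.1%, a count that depends on the same choice. The fraction in the control was at most 0.027, where the tumours had 0.107 or more. Why the control read is this frequent was not tested.

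Of 142 other genes of repair and replication, in 12 groups, 10 (7.04%) had an ESC site, close to the 7.23% of the 21900 protein-coding genes in the RefSeq table that had one. They held 12 sites in all, of which 4 were called in 1 library and 2 in all 10. The 13 base excision repair, 7 mismatch repair, 12 nucleotide excision repair, 12 checkpoint, 4 RecQ, 9 PARP and single-strand break repair and 7 translesion genes had none, which for groups of this size and the share over all genes is no result about them. The 18 genes of replicative polymerases and their cofactors had 5, in Pcna, Rfc5, Rfc1 and Pole2. Pcna, the sliding clamp that holds polymerase delta on DNA, carried the only exonic one, the synonymous T206T in exon 5 (G618T, chromosome 2, position 132249862). Each of the 10 ESC libraries held it, with 0.241 to 0.398 of 98 to 145 reads, with 0 of 156 control reads. The ranges of Pcna T206T and Pold1 D287D overlap only between 0.361 and 0.398, and Pcna T206T was called in no tumour. The 20 genes of origin licensing and the replicative helicase had 4 sites, in Mcm3, Mcm7 and Gins1, those of Mcm3 and Mcm7 lying in 3′ UTRs and that of Gins1 in an intron. The remaining sites were intronic, in Rad51b, Dclre1c and Slx4.

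In the tumours, 30 of these 142 genes (21.1%) had a site, against 16.0% of all protein-coding genes, with no test of the difference. They held 185 sites, of which 99 were called in exactly the 7 tumours without LCDM-P9 replicate 2. Since 48.7% of all non-intergenic tumour sites were called in this way, nothing is read from that count. Only 2 of the 185 sites lacked a dbSNP identifier, adjacent sites in the 3′ UTR of Brca2, a gene of homologous recombination. They stood at 0.238 and 0.15 in A2iL-P9 replicate 3 and are named here after their values were seen. None without an identifier changed a protein. With an identifier, 11 did. Pold1 D287D was thus the only coding tumour site without an identifier among the 4 genes and these 142.

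The fractions of other sites were set beside that of Pold1 over the 10 ESC libraries. Among the 213 other exonic sites called in all 10, the highest Pearson correlations of the fraction with that of Pold1 D287D were found for Gm4736 N261S (0.863, fractions 0.05 to 0.114), Pvr F128F (0.822, 0.187 to 0.352), also on chromosome 7, and Gm5148 D30N (0.717, 0.117 to 0.253). These were picked as the highest of 213 and the points share library and depth, so they are a description. In the tumours, no other gene of 1447 with at least 3 dbSNP sites had the same share of its sites called in each tumour as Atm or as Wrn. Nearness was then ranked among genes on other chromosomes only, so genes on the same chromosome may be closer. Closest to Atm in that ranking came Rplp0, Heatr5a and Capn9, with mean absolute differences of 0.0151, 0.0259 and 0.0302 over the 8 tumours. Closest to Wrn came Cacna2d1, Rbbp8 and Sgk2, at 0.0160, 0.0304 and 0.0337.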

How the data were processed

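The 18 deposited lists give, per the file headers, genotype, reads per allele, mean base quality, depth, alternative-allele fraction and somatic status of each SNV in a library and its control, with RefSeq gene, region, consequence, repeats and dbSNP build 142. Per the submitters' processing notes, BWA, SAMtools and Picard were used with mm10, and no SNV caller is named in these sources. Every listed call was marked as passing and somatic. Values were used as deposited. Libraries were identified from the record linking files to samples. Of the other 3 of the 21 samples, MEF and WT-2 blood entered through the control columns and WT-1 was not analysed here.

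The members and gene lists were chosen with earlier results of these data known. All sites of the 4 genes are described. From the other 142 genes, those with an exonic ESC site, or a protein-changing tumour site without identifier, were to be named. Fractions were compared by exact permutation tests (NumPy 2.4.6, SciPy 1.17.1), Benjamini-Hochberg adjusted over all sites of a kind. The tests were tried on simulated reads with counting error only, depths of at least 20 and large shifts in several conditions. Smaller shifts and added spread between libraries, as at the Pold1 site, were not simulated. Sites entering the ESC test were called in both libraries of at least 3 conditions. Gene positions come from the RefSeq table of GRCm38.p6, and 141 of the 142 symbols stood in it. Minimum depth, base quality, alternative reads, repeats, control reads, spacing, scale, weighting and leaving out each library were tried as alternatives.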

Additional observations from a re-analysis of the deposited data

How the results depend on the processing

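The number of ESC sites in Atm, Wrn, Parp1 and Pold1 fell from 6 to 3 with at least 20 reads and to 2, Pold1 and Parp1, with at least 5 alternative reads. The number called in 1 library fell from 5 to 2 and 1 under these limits, to 3 outside repeats, and to 3 when a second library's call lay nowhere within 10 kb. A base quality of at least 30 removed Parp1. Leaving out a library kept 5 or 6 and 4 or 5 sites. Tumour sites with a dbSNP identifier fell from 26 to 6 when calls with an alternative read in the control were left out, and stayed at 23 to 26 otherwise. Pold1 D287D, the site without one, remained under all of these. With label numbers 3 and 5 as a replicate block, the Pold1 test gave an exact permutation p of 0.3 (adjusted 0.815). The deviations of same-numbered libraries were hardly correlated over 636 sites (-0.117 to 0.0792 over 10 pairs of conditions). These deviations include the counting error of reads, so whether the numbers pair the libraries is not settled by this. Over its 13 alternatives the adjusted exact permutation p was 0.634 to 0.886. No site of the 4 genes passed in the tumour test, which had sites of these genes to test only without LCDM-P9 replicate 2. The smallest exact permutation p is then 0.1, above the threshold used, so no site could pass. Nothing is read from this outcome. The other repair genes had 8 to 12 ESC sites throughout. Depths of 5 to 37 reads limit the 5 private ESC sites, and 17 to 25 reads the tumour values of Pold1.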
